A study of Mus musculus with 2 samples.

Results

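Long intergenic noncoding RNAs (lincRNAs) are transcripts without a recognised protein product whose genes lie between protein-coding genes. Those of mouse cortex were described here in 2 libraries of total RNA. A gene was taken as a member when at least 1 of its transcripts is annotated as lincRNA and its level was at least 1 TPM in both libraries. TPM is an abundance corrected for transcript length and library size. Of 6058 genes with a lincRNA transcript, among 55536 annotated genes, 344 met the rule. Meg3, Mirg, Rian and Rmrp were set aside from these, which left 340 members. As whole genes, 285 of them are annotated as lincRNA and 55 as processed transcript, so not every member is a lincRNA gene by gene type. Some share exon bases with a coding gene on the same strand, as 1810026B05Rik does with Chd2. Members were thus chosen by their TPM in these same libraries, and their levels are given as a description with no test.

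The tissue was left cerebral cortex of adult male mice of the strain B6CASTF1/J, the F1 hybrid of B6 and Cast, aged 8 to 10 months. Both libraries belong to 1 group with no treatment, so the comparisons are between the animals and between the authors' 2 quantifications. Replicate 1 is the animal numbered 2 and replicate 2 the animal numbered 4. They carry 1 shared donor label, and their being separate animals rests on these numbers. Each library was made from 300 ng of RNA with ribosomal RNA reduced and synthetic spike-in RNAs added, and the libraries held 26925514 and 30143684 expected counts. Errors are the SD over the animals (n = 2).

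The tissue label was checked against marker genes. All 6 cortical neuron markers were present, with means of 26.3 to 455 TPM, as were the 3 glial markers. The 4 striatal markers had means of 34.8 to 273 TPM, so the dissected tissue carried RNA of genes known for the striatum, and the part of striatal tissue in these results was not tested. Of the cerebellar markers, Gabra6 was listed at 0 and Cbln1 averaged 4.68 TPM. In bulk tissue, fewer cells of a type and less RNA per cell cannot be told apart.

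LincRNAs work through several routes. Some stay in the nucleus and scaffold nuclear bodies, as Malat1 and Neat1 do. Some bind proteins or microRNAs through repeated short elements, as Norad does for Pumilio proteins and the Cdr1 antisense RNA does for miR-7. Others are precursors, whose spliced RNA is a by-product while a hairpin or an intron is processed into a microRNA or a small nucleolar RNA. In brain, the hosts of miR-9 and miR-124, microRNAs of neural development and neurons, are of this kind.

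The members that hold microRNA hairpins included those of miR-9, miR-124, let-7 and miR-137, and the mature sequences show which hosts share a seed, the stretch of bases 2 to 8 that pairs with targets. A hairpin counted as held when it lies within the gene on the same strand in GENCODE M21. Sequences are from RefSeq (GRCm38.p6), with the seed in capitals.
mmu-miR-9-5p: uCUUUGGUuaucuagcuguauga
mmu-let-7a-5p: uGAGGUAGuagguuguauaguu
mmu-let-7b-5p: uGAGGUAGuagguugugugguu
mmu-let-7c-5p: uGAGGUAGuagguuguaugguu
mmu-miR-100-5p: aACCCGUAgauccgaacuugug
mmu-miR-99a-5p: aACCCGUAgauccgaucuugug
mmu-miR-125b-5p: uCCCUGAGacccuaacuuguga
mmu-miR-29b-3p: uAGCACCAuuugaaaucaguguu
mmu-miR-29c-3p: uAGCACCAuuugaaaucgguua
mmu-miR-137-3p: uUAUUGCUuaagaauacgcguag
mmu-miR-191-5p: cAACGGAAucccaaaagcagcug
mmu-miR-425-5p: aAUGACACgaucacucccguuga
The let-7 microRNAs share 1 seed across the hosts 6720427I07Rik, Lncppara and Mir99ahg. The seed of miR-100 recurs in miR-99a, so 3110039I08Rik (named Mir100hg in RefSeq) and Mir99ahg each hold a miR-100 family member together with a let-7 and a miR-125b hairpin. The Mir100, Mirlet7a-2 and Mir125b-1 hairpins of 3110039I08Rik also lie within the overlapping member Gm49317, and both genes are counted as hosts below. The miR-29b and miR-29c hairpins share a seed and lie in the same host, A330023F24Rik.

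Hairpin hosting was more common among the members than among other genes. A microRNA gene lay within 34 of the 340 members (10%), within 5.33% of 12994 protein-coding genes detected by the same TPM minimum, and within 0.718% of 5713 lincRNA genes below it. Small nucleolar RNA genes lay within 20 members (5.88%), 1.87% of the coding genes and 0.455% of the lower lincRNA genes. These are shares of annotated genes, given without a test, since genes that differ in length and level were not matched.

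All 3 miR-9 hairpins lie in members. Gm3764 (chromosome 3, 88206813 to 88229959), which holds Mir9-1, stood at 86.8 and 100.1 TPM in replicates 1 and 2. C130071C03Rik (chromosome 13, 83721381 to 83884194), the host of Mir9-2, stood at 27.3 and 28.3 TPM. Mir9-3hg stood at 17.8 and 29.7 TPM. Gm3764 was thus the highest of the 3 hosts in both libraries, and Mir9-3hg varied more than the other two. Its ratio of replicate 1 over replicate 2, taken on scaled counts, was 0.635, with an exact 95% binomial interval of 0.558 to 0.721 that covers counting error only.

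Hosts of the miR-124 hairpins followed. Mir124a-1hg stood at 89.9 and 95.5 TPM and Mir124-2hg at 24.7 and 33.6 TPM. Of the other hosts shown above, 3110039I08Rik stood at 39.9 and 46.7 TPM, A330023F24Rik at 41.2 and 35.4 TPM and Gm26871, the host of miR-137, at 14.9 and 16.2 TPM. Means over all 34 hosts ran from 1.25 to 1092 TPM, the last that of C230004F18Rik. Their median was 9.65 TPM, against 2.72 TPM over all members, each taken over the genes' means of both libraries. A host's level is that of its spliced or unprocessed RNA, and mature microRNAs, far shorter than these fragments, were not measured. Of the non-members listed as microRNA hosts, Mir22hg, which has no transcript of type lincRNA here, stood at 9.91 and 13.6 TPM, Mir17hg stood at 0.33 and 0.30 TPM and Mir142hg was listed at 0.

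The members that carry repeated elements are shown by the stretch of their leading transcript that is densest in them. The first is C230004F18Rik (chromosome X, 61116378 to 61292484), named Cdr1os in RefSeq, which runs opposite to Cdr1. Its leading transcript of 3354 bases holds the Cdr1 antisense exon, known for binding miR-7. The microRNA is printed first with its seed in capitals, and in the transcript stretch, bases 752 to 871, the capitals are matches to that seed (GTCTTCC).
mmu-miR-7a-5p: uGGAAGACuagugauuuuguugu
C230004F18Rik: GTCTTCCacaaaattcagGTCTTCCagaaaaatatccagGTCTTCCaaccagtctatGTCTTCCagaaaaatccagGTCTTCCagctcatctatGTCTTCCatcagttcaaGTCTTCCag
The stretch of 120 bases holds 7 matches, and the whole leading transcript holds 123, or 36.7 per kb. Among the leading transcripts of 12463 detected genes of at least 1 kb, the next count was 11, in D10Wsu102e. Only the transcript strand was searched. At least 1 match was present in 23.2% of the 207 members and in 26.9% of all detected genes of that length, so a single match is common. C230004F18Rik stood at 1071 and 1114 TPM, and the tables hold linear transcript models only, so a circular form of the exon was not measured apart.

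**Figure D1:**
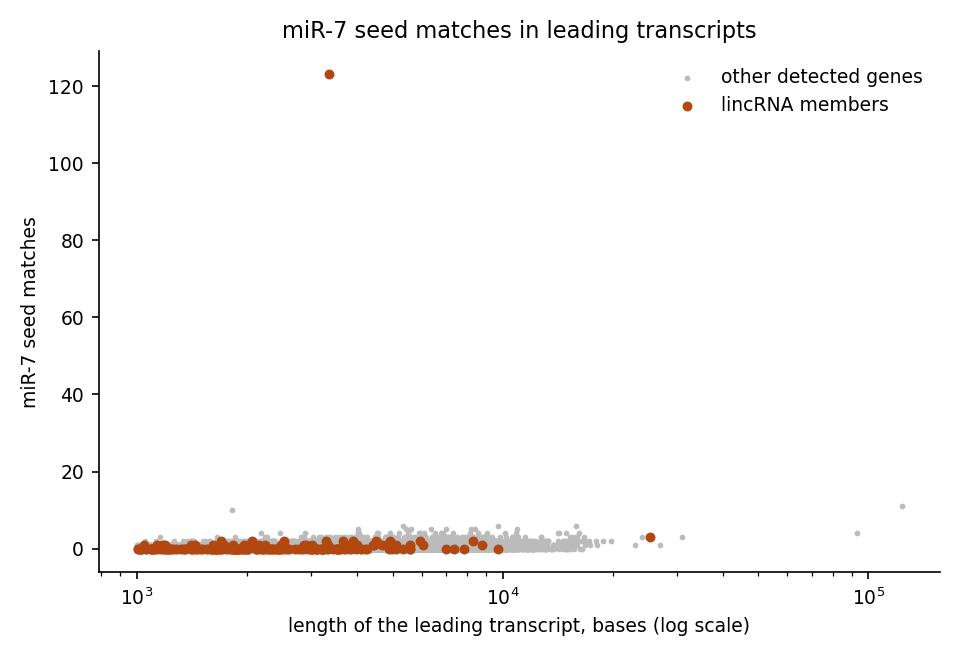
Matches to the miR-7 seed in the leading transcript of each detected gene (vertical axis, number of matches) against transcript length in bases (horizontal axis, log scale), with lincRNA members in orange and other detected genes in grey. C230004F18Rik stands alone at 123 matches, and no other gene passes 11.

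1700020I14Rik, named Oip5os1 in RefSeq and known as Cyrano, is the lincRNA whose miR-7 site directs decay of that microRNA. Its site, bases 2935 to 2958 of the 8300-base leading transcript, is shown because the pairing extends beyond the seed. The right-hand capitals match the seed and the left-hand capitals are complementary to bases 11 to 23 of the microRNA.
1700020I14Rik: ACAACAAAATCACcaatGTCTTCC
The pairing outside the seed covers 13 bases without a break. The gene (chromosome 2, 119594297 to 119607502) stood at 147.9 and 144 TPM. It ranked 6 among the members by mean TPM, and C230004F18Rik ranked 4.

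2900097C17Rik, named Norad in RefSeq (chromosome 2, 156388065 to 156392979), binds Pumilio proteins, which repress mRNAs. The stretch from base 1523 to 1642 of its 4915-base transcript is shown with Pumilio elements (TGTANATA) in capitals.
2900097C17Rik: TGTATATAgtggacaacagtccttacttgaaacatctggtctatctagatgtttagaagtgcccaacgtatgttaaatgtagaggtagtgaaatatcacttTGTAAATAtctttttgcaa
The transcript holds 11 elements, the highest count among members and rank 4 among the detected genes of at least 1 kb. Gm7292 follows with 9, and 30.9% of members and 30% of all detected genes hold at least 1. Per kb Gm7292 is the densest of these detected genes, at 3.56 against 2.24 for 2900097C17Rik. Norad stood at 534 and 551 TPM, a mean of 542 ± 12 TPM.

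Miat, a nuclear lincRNA of neurons, binds splicing factors through repeats of TACTAAC. Bases 5186 to 5305 of its 8758-base leading transcript are shown with the repeats in capitals.
Miat: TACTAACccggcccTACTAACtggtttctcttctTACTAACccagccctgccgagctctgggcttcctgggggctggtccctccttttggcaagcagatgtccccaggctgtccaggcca
The transcript holds 6 of them, more than any other detected gene of at least 1 kb, where 7.29% hold at least 1. Per kb it holds 0.685, which is not the highest density: Gm44559 has 0.988. Miat (chromosome 5, 112213228 to 112229395) stood at 56.3 and 67.0 TPM.

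Most of the members' summed TPM sat in a few genes. The 10 highest members held 89.7% ± 0.123 of it, and Gm26917 and Gm42418 alone held 57.8% ± 0.880. Gm26917 stood at 9421 and 9683 TPM and Gm42418 at 1679 and 2014 TPM. Both lie side by side on chromosome 17 and are known to take reads of ribosomal RNA. Gm42418 is named Rn18s-rs5 in RefSeq, and 99.5% of its exon bases lie opposite an annotated ribosomal RNA gene. How much of their level is ribosomal RNA was not tested. Without both, Malat1 alone held 50.1% ± 1.47 of the members' TPM, C230004F18Rik 13.1% ± 0.593 and Norad 6.52% ± 0.332. The members took 3.37% ± 0.104 of the expected counts of all genes, and 1.42% ± 0.0576 without those 2 genes.

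**Figure D2:**
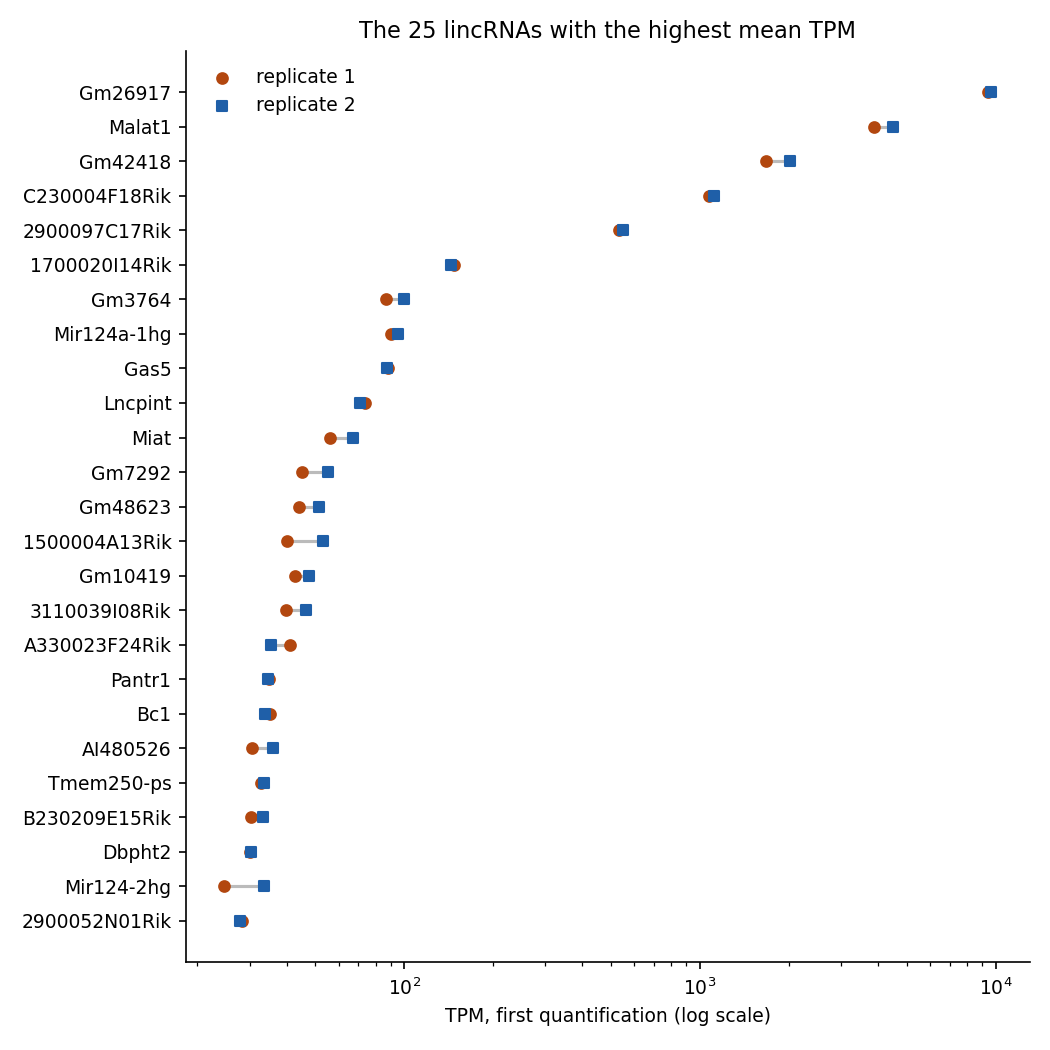
TPM of the 25 highest members in the first quantification (horizontal axis, log scale), with replicate 1 as circles and replicate 2 as squares joined by a line. Levels run from 9552 TPM on average for Gm26917 to 28.1 TPM for 2900052N01Rik, and most pairs of points lie close together.

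Most members were low. The median over all 340 in a library averaged 2.78 ± 0.212 TPM, against 16.2 ± 0.258 TPM for the detected protein-coding genes. At least 10 TPM on average was reached by 56 members (16.5%) and by 64.6% of the coding genes, while 115 members (33.8%) stayed under 2 TPM. Just inside the minimum of 1 TPM lay Gm43254, Gm44214, AC138790.1, Gm49539 and Gm45353, whose lower value was 1.00 to 1.03 TPM. Just outside it lay Gm42456, Gm8239, Gm43263, AC102342.2 and Gm17102, whose lower value was 0.99 TPM. These last genes are among 110 lincRNA genes that reached 1 TPM in 1 library only, and 3838 were listed at 0 in both.

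Among nuclear and widely expressed lincRNAs, 16 of the 18 listed genes were found by name and 12 were members. Tug1, at 54.5 and 53.6 TPM, and Firre, at 26.4 and 33.3 TPM, have no transcript of type lincRNA here and so could not be members. Malat1, a nuclear speckle RNA (chromosome 19, 5795690 to 5802672), stood at 3881 and 4486 TPM. Neat1, the scaffold of paraspeckles (chromosome 19, 5824708 to 5845478), stood at 23.9 and 25.5 TPM, far lower than its neighbour. In both libraries 86.1% and 86.4% of the Neat1 level was assigned to a transcript of 3004 bases, while the longest annotated one has 20771 bases. Lncpint stood at 73.8 and 71.2 TPM, Pvt1 at 10.2 and 11.0 TPM, Dleu2, the host of miR-15a and miR-16, at 9.98 and 9.26 TPM, Carmn at 2.14 and 1.60 TPM and Crnde, the lowest of the group, at 1.35 and 1.07 TPM.

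Of the 18 genes listed for neural genes or development, 4 were members. Pantr1, which starts 926 bases from the neural transcription factor gene Pou3f3 and runs away from it, stood at 34.9 and 34.6 TPM. Its neighbour Pantr2 was low, at 1.77 and 1.73 TPM. Rmst, a partner of Sox2 in neurogenesis, stood at 26.3 and 21.3 TPM. Miat is the other one. Several of the listed genes have no lincRNA transcript in this annotation and so could not be members, such as Sox2ot at 17.6 and 15.99 TPM.

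Small nucleolar RNA hosts and X inactivation genes were detected as well. Of 17 listed snoRNA hosts, 14 were found by name and 9 were members. Gas5, a growth-arrest RNA with snoRNAs in its introns, led these members at 88.3 and 87.3 TPM. Of the listed non-members, Snhg11 stood higher, at 237 and 273 TPM, and Snhg3 at 11.5 and 10.5 TPM. Neither has a transcript of type lincRNA here, so they could not be members. Snhg8 stood at 17.5 and 22.5 TPM, Snhg12 at 19.3 and 16.9 TPM and Snhg20 at 13.7 and 16.9 TPM. Snhg1, Snhg6, Snhg5, Snhg17 and Snhg10 had means of 3.55 to 10.0 TPM. Of the 4 X inactivation genes, Ftx and Jpx, known as activators of Xist, were members, at 13.8 and 15.4 TPM and at 4.99 and 7.65 TPM. Both animals are male, and Tsix and Xist stood under 0.1 TPM.

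The 25 highest members also held genes with little known of them. Gm7292 stood at 45.2 and 55.3 TPM, Gm48623 at 44.1 and 51.4 TPM, 1500004A13Rik at 40.3 and 53.3 TPM and Gm10419 at 42.9 and 47.7 TPM. Tmem250-ps, AI480526, B230209E15Rik, Dbpht2 and 2900052N01Rik had means of 28.1 to 33.2 TPM. Dbpht2 is listed as protein coding in RefSeq, so its class depends on the annotation. Of the 24 neighbouring pairs in the order of the 25, 12 had ranges over the animals that overlapped, so their order is not resolved.

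Members had fewer annotated transcripts and shorter ones than coding genes. A single transcript was annotated for 39.4% of members, 9.44% of detected coding genes and 73.9% of lincRNA genes below the minimum. The median longest transcript had 1915 bases in members, 3524.5 in coding genes and 970 in the lower lincRNA genes. Single-exon genes were 18.8% of members, 2.59% of coding genes and 4.43% of lower lincRNA genes. Exon bases were shared with another gene on the same strand by 68 members. The routes of quantification compared below were 2-fold apart for 7.35% of these and for 6.62% of the 272 members that share none. Promoter sequences were matched for 162 of 340 members (47.6%), too few for a check of promoter composition, which is void.

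Many members start beside a coding gene. Within 1 kb and in the opposite direction, 49 members (14.4%) started, against 9.61% of the detected coding genes and 3.94% of the lower lincRNA genes. In 45 of the 49 pairs the coding gene was higher in both libraries. Detected coding genes as a whole are higher than members, with medians of 16.2 and 2.78 TPM. The count was not set against other pairs of a member and a coding gene, so whether it is particular to divergent pairs was not tested. 4930570G19Rik stood at 8.73 and 11.0 TPM beside Negr1, a neural cell adhesion gene, at 78.4 and 93.8 TPM. 5031425E22Rik stood at 12.9 and 12.1 TPM beside the chromatin gene Kmt2e at 47.7 and 48.3 TPM. The lincRNA was the higher one in both libraries in 3 pairs. These were Pantr1, with Pou3f3 at 27.5 and 24.5 TPM, AI480526, at 30.5 and 35.9 TPM with the histone methyltransferase gene Setd1b at 15.5 and 14.8 TPM, and 5930412G12Rik, at 1.71 and 1.77 TPM with the Wnt receptor gene Fzd10 at 0.87 and 0.86 TPM.

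**Figure D3:**
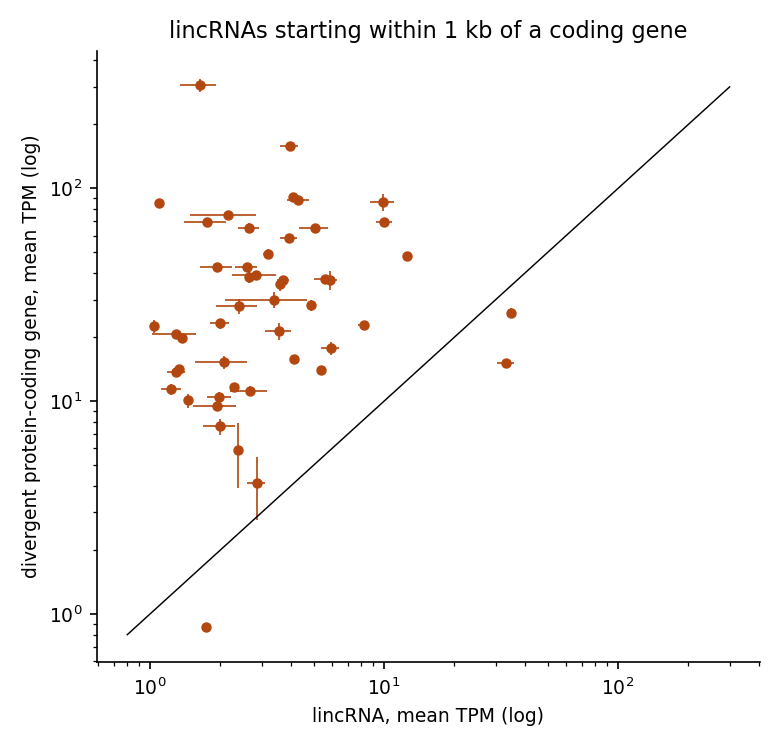
Mean TPM of 49 lincRNA members (horizontal axis, log scale) against that of the protein-coding gene that starts within 1 kb and runs the other way (vertical axis, log scale). Bars span the 2 animals and the line marks equal levels; 45 pairs lie above it in both libraries and 3 below it.

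The authors quantified each library by 2 routes, which allows each member's level to be set against a second estimate from the same reads. The first route is that of all values above. Ranks over the 340 members were alike, with a Spearman correlation of 0.867 in replicate 1 and 0.839 in replicate 2, points that share their library. Of the 10 highest members 9 were shared, and of the 25 highest 21. The second route gave Malat1 2174 and 3459 TPM, C230004F18Rik 892 and 1227 TPM, Norad 400 and 559 TPM and 1700020I14Rik 119 and 162 TPM. Within a library these differ from the first route by less than 2-fold, while between the animals the second route spread them further.

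The scale of the second route moved between the libraries. On log2(TPM + 0.1), the median ratio of first over second was 0.024 for members in replicate 1, where it was 0.15 for all detected genes. In replicate 2 it was -0.46 for members and -0.33 for all detected genes. The members' median thus lay under that of all genes by a similar step in each library, and the sign of the members' own median follows the library.

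A difference of at least 2-fold in the same direction in both libraries was seen for 23 members. Higher by the first route were 7 (2.06%), against 2.6% of all 15010 detected genes in both tables, and lower by the first route were 16 (4.71%), against 0.706%. The share higher by the first route was thus near that of all genes, but not near that of coding genes. Of 12982 detected protein-coding genes, 0.231% were higher and 0.439% lower by the first route. The share also differed by counts: 14 of the 124 members averaging under 50 normalised counts were apart (11.3%), 6 of them higher and 8 lower by the first route. Of the 216 with more counts 9 were apart (4.17%), 1 of them higher and 8 lower. Counts were not separated from transcript length here, and the role of either was not tested. Members have fewer counts than coding genes, with medians of 73.7 and 678, and the share over all genes was not matched for counts. Of the 11 members whose longest transcript is under 400 bases 5 differed, all higher by the first route. Of the 70 members between 400 and 1000 bases 6 differed, 5 of them lower by the first route. Of the 259 of at least 1000 bases 12 differed, 11 of them lower. The share over all genes was not matched for length, so whether other short genes differ in the same way was not tested.

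The largest log2 ratio between the routes was that of Bc1. Bc1 is a neuronal RNA of dendrites, transcribed by RNA polymerase III and known to repress translation. The whole annotated transcript, of 168 bases, is shown because its length sets it apart from the other members.
Bc1: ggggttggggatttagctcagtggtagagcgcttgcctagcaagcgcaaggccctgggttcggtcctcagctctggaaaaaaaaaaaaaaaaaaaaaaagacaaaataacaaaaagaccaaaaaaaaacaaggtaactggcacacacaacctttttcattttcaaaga
By the first route it stood at 35.1 and 33.8 TPM, which rested on 42 and 44 expected counts, and the second route listed it at 0. Gm49207 stood at 10.4 and 9.23 TPM, Gm10076 at 7.06 and 11.3 TPM and AC150898.1 at 1.11 and 1.36 TPM, and the second route listed these at 0 too. Gm44718, Gm45846 and Gm9989 were the other members called higher by the first route. Of Gm45846, 90.8% of exon bases are shared with another gene on the same strand.

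Members lower by the first route had more reads in the second. AC121821.1 stood at 5.59 and 6.67 TPM by the first route and at 118 and 203 TPM by the second. MicroRNA and snoRNA genes lie within it. Other genes on the same strand share 12.6% of its exon bases, the coding gene Gm28285 the largest part, and the role of either was not tested. Gm43305 stood at 13.5 and 10.1 TPM by the first and at 61.3 and 74.3 TPM by the second, with 985 and 819 against 6646 and 6310 counts. Snhg20 stood at 13.7 and 16.9 TPM by the first and at 59.8 and 85.5 TPM by the second. Gm20186, A230006K03Rik, Gm31182, Gm10863 and Gm28756 complete the 8 with the largest differences, at log2 ratios averaging -2.29 to -2.70. For these genes the level depends on the route, and no value of either is preferred here.

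**Figure D4:**
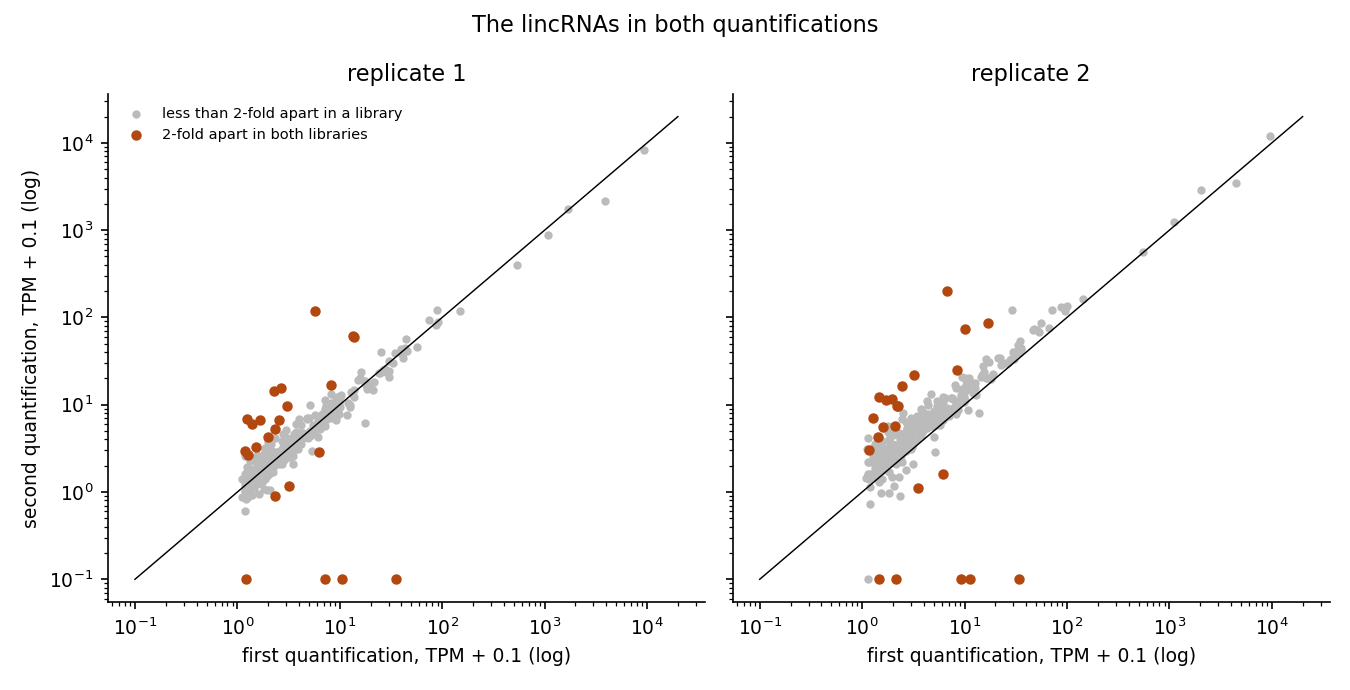
TPM + 0.1 of each lincRNA member by the first quantification (horizontal axes, log scale) and the second (vertical axes, log scale), with replicate 1 in the left panel and replicate 2 in the right. The 23 members at least 2-fold apart in both libraries are in orange, the line marks equal values, and the cloud of replicate 2 lies above the line.

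The routes were also compared within genes. For 154 of the 206 members with 2 or more transcripts (74.8%), the leading transcript was the same by both routes. The leading transcript held a median of 60.6% of its gene, and in 64 members it held under 50%. Both routes named the same leading transcript for C230004F18Rik, with 64.3% and 63.3% by the first and 70.5% and 75.1% by the second. They differed for Snhg12, where the first route gave 63.6% and 61.3% to a transcript that the second listed at 0. For Snhg20 the first gave 89.6% and 88.2% to a transcript that held 14.01% and 28.9% by the second. Among members averaging at least 50 normalised counts, M5C1000I18Rik, 2900079G21Rik and Gm9989 were the other 3 with the largest gaps. Among those with fewer counts, D630033O11Rik had a wider one, with 98.2% and 64.6% by the first route for a transcript that the second listed at 0.

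The animals were close to each other. Of the 340 members, 216 had a mean of at least 50 normalised counts and entered this comparison, on scaled counts with a prior count of 2. Their median absolute difference was 1.12-fold, against 1.08-fold for all 14169 genes that passed. These figures were not matched for counts, which are lower in members than in coding genes. At least 2-fold higher in replicate 1 was 1 of 216 members, against 78 of 14169 genes (0.55%). At least 2-fold lower were 2 of 216 members, against 44 of 14169 genes (0.311%). So few members were called that neither a likeness to all genes nor an excess can be read from these shares. With 1 library per animal no test of a gene was possible.

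The 3 members past 2-fold are named with their counting intervals. With scaling by the spike-ins only Gm42031 of these passed 2-fold, at a log2 ratio of 1.14, and on log2(TPM + 1) none of the 3 did. Gm42031 stood at 2.46 and 1.18 TPM in replicates 1 and 2, a ratio of 2.16 (exact 95% binomial interval 1.46 to 3.25). 4833445I07Rik, which holds the hairpins of miR-191 and miR-425 shown above, stood at 2.10 and 4.67 TPM, a ratio of 0.483 (0.334 to 0.688). Gm47204 stood at 2.69 and 5.79 TPM, a ratio of 0.480 (0.366 to 0.624). By the second route the log2 ratio of Gm42031 was 0.51, under 2-fold, and that route gave it 6.65 and 6.90 TPM, while the log2 ratios of 4833445I07Rik and Gm47204 were -1.08 and -1.03. Gm47204 lies opposite another gene over 98.6% of its exon bases, and whether counting used the strand is not given in the sources used here.

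As a set, the members lay slightly below all genes in the ratio of replicate 1 over replicate 2. Their median log2 ratio was -0.072, against 0.00077 for all genes, and 139 of 216 (64.4%) were lower in replicate 1, against 49.8% of all genes. With scaling by the spike-ins the medians were -0.0013 and 0.072, and 109 of 216 members (50.5%) were lower, against 31.8% of all genes, so that only the gap to all genes, not a lower level in replicate 1, was left. Of the 34 microRNA hosts 30 were counted, with 23 lower and a median of -0.12. No member of the 5 lincRNA lists passed 2-fold. Beside these, choroid plexus markers and immediate early genes were higher in replicate 1: of the 10 choroid plexus genes 7 were counted and all 7 were at least 2-fold higher, with summed levels of 266 and 106 TPM, and of the 8 immediate early genes 6 were, with summed levels of 443 and 155 TPM. Kcne2, a choroid plexus channel gene, had 65 and 0 counts. Their part in the members' differences was not tested.

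**Figure D5:**
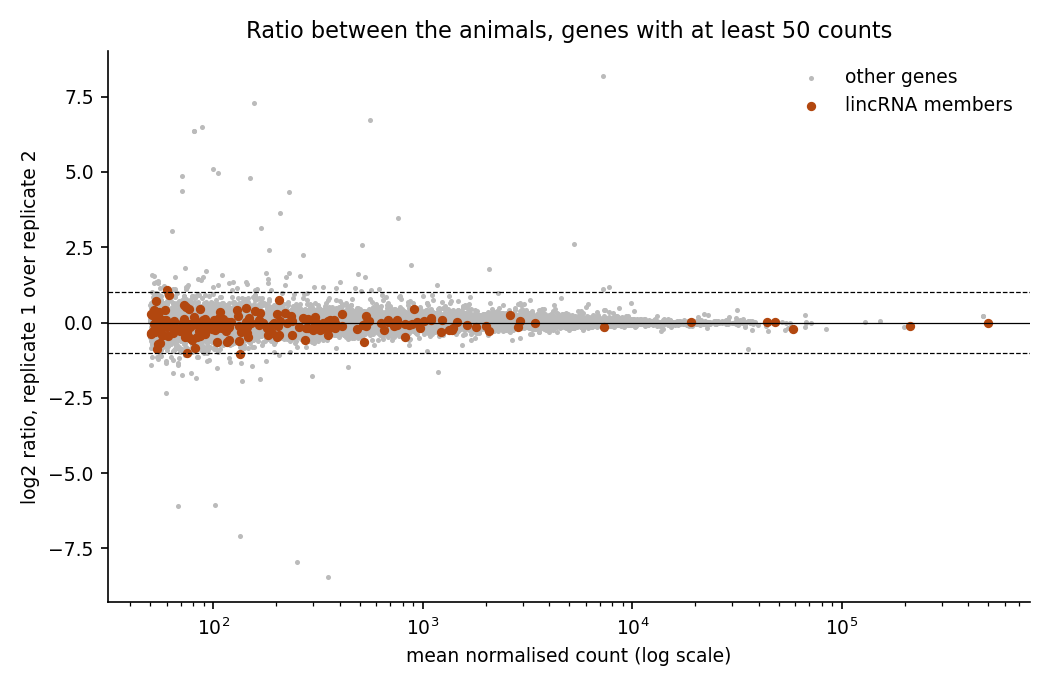
Log2 ratio of replicate 1 over replicate 2 (vertical axis) against mean normalised count (horizontal axis, log scale) for genes averaging 50 normalised counts or more, with lincRNA members in orange and other genes in grey. Dashed lines mark 2-fold; 3 of 216 members lie beyond them.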

How the data were processed

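Total RNA sequencing of 2 cortex libraries was analysed from the authors' tables on mm10 with GENCODE M21. Per the file headers, the authors deposited gene and transcript tables with expected counts, TPM and FPKM and, for transcripts, the percent of the gene (the first route), derived from transcriptome alignments. A second deposited transcript table gives estimated counts and TPM derived from reads, here summed by gene. Which programs made them is not given in the sources used here.

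Expected counts were rounded, and 356 ribosomal RNA genes, tRNA entries and spike-ins were left out of library sizes (24688669 and 27440152). Animal ratios used TMM scaling (edgeR 4.0.16), a prior count of 2 and a mean of at least 50 normalised counts. On simulated data for this comparison (14154 genes), 200 of 200 genes changed 4-fold were recovered, with 1 unchanged gene called. The changed genes all had expected counts of at least 200, and the spread between animals was a set value. Recovery of changes near 2-fold, or at lower counts like those of many members, was therefore not examined. Route ratios used log2(TPM + 0.1), with a call meaning 2-fold the same way in both libraries. Annotation, neighbours and transcripts were read from GENCODE M21 on GRCm38, and microRNAs from RefSeq GRCm38.p6. Intervals cover counting error only.

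Members and lists were chosen with earlier results of these data known. Named were the 25 highest members, list members, the largest ratios among those called, the genes beside the TPM minimum and up to 5 transcript disagreements, these kept to members with at least 50 counts after the values were seen. Other genes named, such as hosts and divergent pairs, were chosen after their values were seen. Alternatives included DESeq2 1.42.0 size factors. Scripts ran in Python 3.11.15 (numpy 2.4.6, scipy 1.17.1, pandas 2.3.3) and R 4.3.3.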

Additional observations from a re-analysis of the deposited data

How the results depend on the processing

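No paired analysis was possible because there is 1 group. The 8 results were recomputed under 43 alternatives, and the cause of the changes below was not tested. The 340 members became 497 at a minimum of 0.5 TPM, 197 at 2 TPM, 248 at 1 FPKM and 574 by the second quantification, and 375 to 415 with 1 library left out. Their median of 2.78 TPM became 3.87 TPM by the second quantification and 1.79 as FPKM, and 2.63 to 2.93 TPM with 1 library left out. The share of the 10 highest, 89.7%, became 86.6% by the second quantification and 77.0% without Gm26917 and Gm42418, and 89.7% to 89.8% with 1 library left out. The 3 members 2-fold apart between the animals became 1 with spike-in scaling and 0 on log2(TPM + 1). Their median log2 ratio of -0.072 became -0.067 with DESeq2 size factors, -0.0013 with spike-in scaling (where all genes had 0.072), -0.076 with a mean of at least 10 counts, -0.072 with no filter or a prior count of 0.5, -0.043 by the second quantification and -0.11 on log2(TPM + 1). The 23 members apart between the routes became 14 on log2(TPM + 1), and 25 to 62 with 1 library left out, the 62 without replicate 1. The median ratio of the routes, -0.22, was -0.15 on rescaled TPM, -0.097 on CPM, -0.46 without replicate 1 and reversed to 0.024 without replicate 2. The 154 members with the same leading transcript became 153 to 155 with 1 library left out. Depth limits the lower members: 124 of the 340 averaged under 50 normalised counts, and no ratio between the animals was counted for them.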
